A study of Homo sapiens with 120 samples.

Results

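Aminoacyl-tRNA synthetases were followed in U2OS cells treated to switch on the integrated stress response, through a drug-controlled kinase or chemical stress. The set held 36 nuclear genes, taken by gene symbol from 57665 genes in the deposited table. It comprised 18 genes for cytosolic enzymes, 16 genes for mitochondrial enzymes (symbols ending in ARS2), and GARS and KARS, which serve both compartments. All 36 passed the filter on low counts, as did 26998 genes in all.

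Each of these enzymes joins an amino acid to its matching tRNA, which the ribosome then uses. The cytosol and the mitochondrion keep separate ribosomes, and most amino acids have a separate enzyme, encoded by a separate nuclear gene, for each of them. In the integrated stress response, kinases such as PERK phosphorylate eIF2α, bulk translation falls and the transcription factor ATF4 is made. Some cytosolic synthetase genes are known ATF4 targets.

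The samples were 120 RNA-seq libraries in 40 groups of 3. U2OS is a human osteosarcoma line. Dmr-PERK cells stably carried a fusion of mouse PERK's eIF2α kinase domain with DmrB, a domain that pairs up on the ligand AP20187 (dimerizer). Parental cells lacked the construct. Both lines received 195 pM dimerizer, 100 nM thapsigargin (a SERCA inhibitor that empties calcium from the endoplasmic reticulum) or 0.05 mM sodium arsenite (an oxidative stressor) for 2, 4, 8, 16 or 24 h. Untreated wells of both lines were collected at 0, 4, 8, 16 and 24 h. The labels do not say whether the Dmr-PERK cells are 1 clone or whether the triplicate wells were separate cultures, so p-values speak to the spread of wells, which may be technical.

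Total counts per library were 1.29e+07 to 5.65e+07, with a median of 2.23e+07. EIF2AK3 (PERK) had 788 to 1038 counts scaled to library size (CPM) in untreated Dmr-PERK libraries, against 24.4 to 52.5 CPM in untreated Parental libraries. Of the markers checked, the osteoblast-lineage genes summed to 572 to 2816 TPM (transcript abundance corrected for length) over all libraries, with SP7 at a median count below 1. Epithelial genes summed to 422 to 1071 TPM, and blood genes, 4 of 5 with a median count below 1, to 0.32 to 2.11 TPM. The deposited TPM have a floor of 0.0631 in every library and every member value lay above it. In bulk libraries, fewer cells of a type and less RNA per cell cannot be told apart. Replicate 3 of the Dmr-PERK 4 h arsenite group and replicate 3 of the Parental 24 h arsenite group stood apart. Mitochondrially encoded transcripts made up 2.72% and 4.14% of their counts, against 4.56% to 4.72% and 6.51% to 6.61% in their group mates. Leaving out both, an alternative chosen after seeing the data, moved no count of members given here by more than 1.5 times.

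Sequences are shown first for the members whose promoter window holds TGATGNAA, the core of the composite element that ATF4 binds with C/EBP partners. Windows of 250 bases before to 50 bases after each gene start came from RefSeq (GRCh38.p14). They were found for 14 of 18 cytosolic members, for GARS and KARS, and for 14 of 16 mitochondrial members. The motif was searched on both strands. The 8 matching bases are in capitals, each line is written 5′ to 3′ on the strand of the gene, and positions are counted from the start base as 0.
AARS, chr16:70289675-70289704, minus strand, match from -187: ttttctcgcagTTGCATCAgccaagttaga
CARS, chr11:3057407-3057436, minus strand, match from -2: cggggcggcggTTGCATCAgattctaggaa
IARS, chr9:92293692-92293721, minus strand, match from -13: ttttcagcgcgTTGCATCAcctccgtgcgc
MARS, chr12:57488053-57488082, plus strand, match from -4: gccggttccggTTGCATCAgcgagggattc
NARS, chr18:57621804-57621833, minus strand, match from 14: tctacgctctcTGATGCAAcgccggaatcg
TARS, chr5:33440956-33440985, plus strand, match from 2: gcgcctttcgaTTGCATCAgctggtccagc
GARS, chr7:30594834-30594863, plus strand, match from -33: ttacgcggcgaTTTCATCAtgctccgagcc
YARS2, chr12:32756076-32756105, minus strand, match from -197: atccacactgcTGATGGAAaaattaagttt
The same 8 letters, TTGCATCA or its reverse complement TGATGCAA, stood in all 6 cytosolic members with a match, while GARS and YARS2 each held another form of the motif. A match was found in 6 of 14 cytosolic members, in GARS but not KARS, and in 1 of 14 mitochondrial members. Among all 27305 genes with a window, 4.46% held a match. In AARS the match lay well upstream, and in the other 5 cytosolic members it lay between -13 and 14 from the start. CARS, TARS and GARS each had 2 windows with different starts. The match lay in 1 of them, and its position is counted from the start of that window. With the window limited to the 200 bases before the start, 2 cytosolic members kept a match, against 3.20% of all genes. CGGAAG, the core bound by ETS factors, was found in 8 of 14 cytosolic and 9 of 14 mitochondrial members, against 22.6% of all genes. The NRF1 motif was found in 3 of 14 members of each class, against 6.98% of all genes. A match describes letters in a window, not a bound site. SARS and WARS, the cytosolic members with the highest dimerizer effects below, had an entry and no match. Among the 16 cytosolic or shared members with an entry, the log2 fold changes with dimerizer had a median of 1.06 and a range of 0.74 to 1.44 in the 7 with a match. In the 9 without, the median was 0.38 and the range -0.40 to 1.55.

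Before treatment the RNAs of the cytosolic enzymes were the more abundant class. On the TPM scale, which corrects for length, the median level of a cytosolic member in untreated Dmr-PERK cells was 91.3, with FARSB lowest at 24.1 and TARS highest at 209 (medians of 15 libraries). The mitochondrial members had a median level of 16.7 TPM, with PARS2 lowest at 5.96 and IARS2 highest at 68.6. GARS stood at 194 TPM and KARS at 171 TPM. The classes overlapped, since IARS2 lay above FARSB.

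Dimerizer raised the cytosolic class in Dmr-PERK cells. Averaged over 4, 8, 16 and 24 h against untreated wells of the same hour, 16 of 18 cytosolic members rose and 1 fell. Of all genes tested, 27.4% rose and 27.9% fell. The median log2 fold change was 0.74 over the cytosolic members, against -0.03 over all genes. Calls are at an adjusted p under 0.05 by edgeR's quasi-likelihood test, with Benjamini-Hochberg adjustment over all genes tested. Since 55.3% of all genes passed, the sizes carry more information than the calls.

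The largest rises were those of SARS, WARS, GARS, CARS and AARS. SARS, the seryl-tRNA synthetase, had a lowest, median and highest level of 401, 576 and 618 CPM in 12 dimerizer libraries, against 163, 183 and 199 CPM in 12 untreated libraries. Every dimerizer library from 4 h on lay above every untreated one, and the log2 fold change was 1.55 ± 0.018 (SE, adjusted p 1.07e-86, edgeR). WARS, the tryptophanyl-tRNA synthetase, had 81.9, 151 and 165 CPM with dimerizer, against 34.2, 45.8 and 52.6 CPM without, a log2 fold change of 1.54 ± 0.027. The lowest dimerizer values of WARS were all at 4 h, and they too lay above the untreated ones.

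GARS, the glycyl-tRNA synthetase of both compartments, had 585, 865 and 943 CPM in dimerizer libraries, against 273, 298 and 308 CPM in untreated ones (log2 fold change 1.44 ± 0.020). CARS, the cysteinyl-tRNA synthetase, had 200, 231 and 236 CPM with dimerizer, against 76.5, 86.3 and 96.9 CPM without, a log2 fold change of 1.37 ± 0.018. AARS, the alanyl-tRNA synthetase, had 339, 491 and 505 CPM with dimerizer, against 155, 187 and 226 CPM without, a log2 fold change of 1.27 ± 0.026. None of these 3 genes had a dimerizer library within the untreated range. YARS (1.19), MARS (1.06), NARS (0.89), TARS (0.75), IARS (0.74), LARS (0.73) and EPRS (0.70) followed on the log2 scale.

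Members at the other end of the class behaved differently. RARS, the arginyl-tRNA synthetase, had 110, 123 and 141 CPM with dimerizer and 111, 127 and 136 CPM without, so that the groups overlapped (log2 fold change -0.02, adjusted p 0.556, edgeR). That mean joins hours of opposite sign. RARS was called lower at 4 h (-0.16) and 8 h (-0.17) and higher at 24 h (0.23). QARS, the glutaminyl-tRNA synthetase, was the 1 cytosolic member that fell. It had 119, 141 and 164 CPM with dimerizer, against 176, 185 and 206 CPM without, with no overlap (log2 fold change -0.40 ± 0.021). HARS (0.19), DARS (0.13) and KARS (0.12) rose by little.

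**Figure D1:**
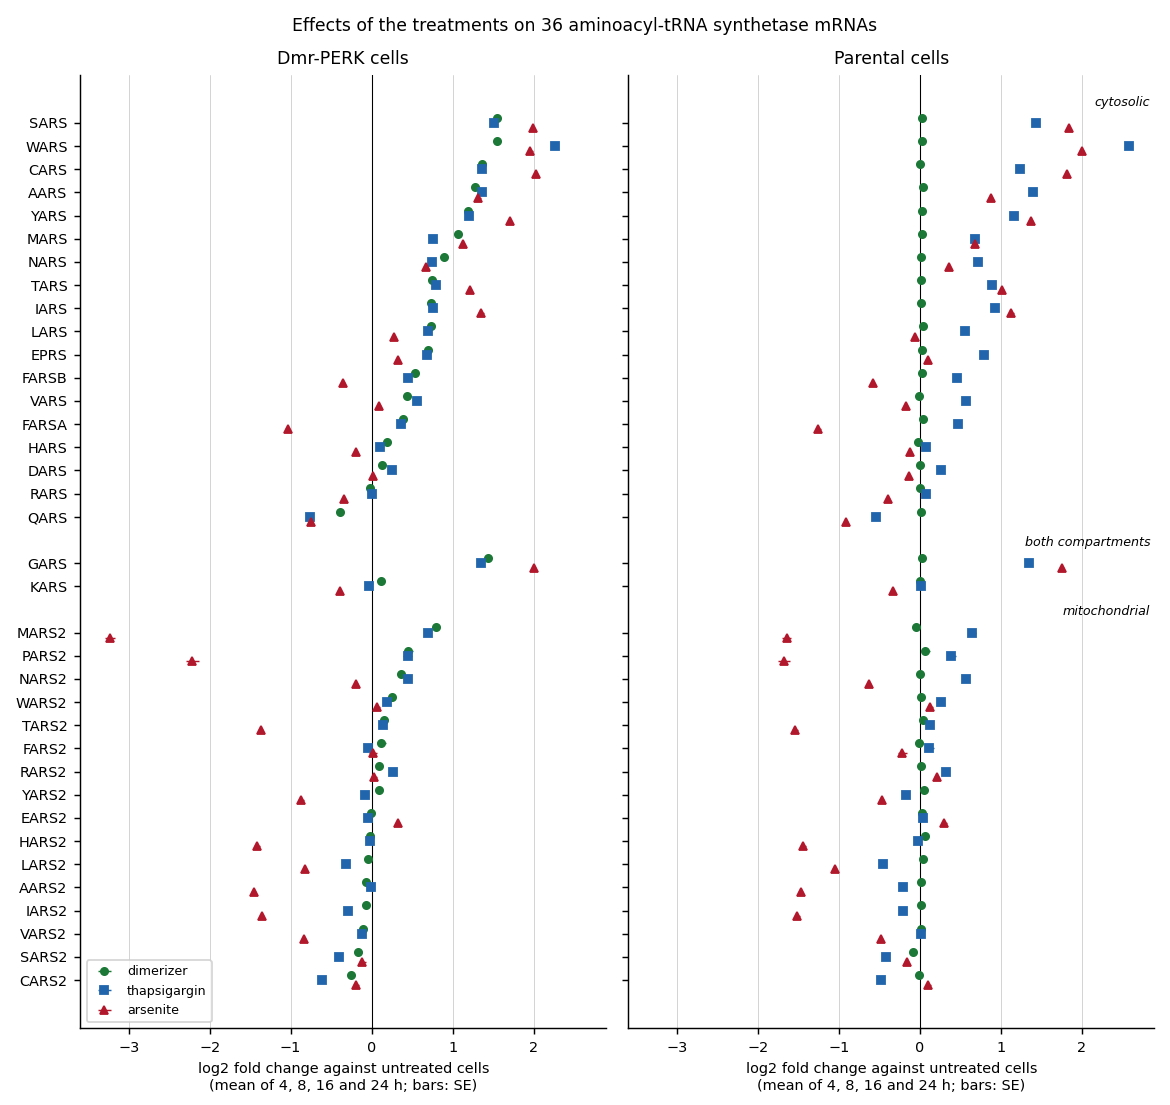
Log2 fold change of each of the 36 members against untreated cells of the same line (x axis, mean of 4, 8, 16 and 24 h, bars are SE, mostly smaller than the symbols) in Dmr-PERK cells (left) and Parental cells (right). Dimerizer moves the upper cytosolic members in Dmr-PERK cells and lies between -0.08 and 0.07 in Parental cells, and arsenite lies at -3.23 for MARS2 in Dmr-PERK cells.

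The mitochondrial members spread to both sides. With dimerizer 8 of 16 rose, 5 fell and 3 did not pass, with a median log2 fold change of 0.04. Over all genes 27.4% rose and 27.9% fell, so the number that fell lies near the share over all genes. When replicate 1, 2 or 3 was left out, 6 rose. Without replicate 1, or without replicate 2, 3 fell. The range, -0.26 to 0.80, was narrower than that of the cytosolic members. MARS2, the mitochondrial methionyl-tRNA synthetase, had 20.8, 23.7 and 26.1 CPM with dimerizer, against 8.08, 14.8 and 20.7 CPM without (log2 fold change 0.80 ± 0.038). With dimerizer it averaged 22.1 ± 1.28 CPM at 4 h and 23.2 ± 0.775 CPM at 24 h, against 19.9 ± 1.10 CPM in untreated cells at 4 h (SD, n = 3 each). At 24 h the untreated wells held 9.41, 8.32 and 8.08 CPM. The gap was thus wider at 24 h, where the untreated level was lower.

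PARS2, the mitochondrial prolyl-tRNA synthetase, had 11.3, 12.7 and 13.7 CPM with dimerizer, against 8.26, 8.96 and 11.5 CPM without (0.45 ± 0.056). NARS2, the mitochondrial asparaginyl-tRNA synthetase, had 53.9, 67.0 and 76.5 CPM with dimerizer, against 42.5, 48.7 and 65.4 CPM without (0.36 ± 0.022). For both genes the highest untreated library lay above the lowest dimerizer library, and the test compares wells of the same hour. WARS2 (0.26), TARS2 (0.16), FARS2 (0.12), RARS2 (0.10) and YARS2 (0.09) also rose.

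The lowest mitochondrial members were CARS2, SARS2 and VARS2, which charge cysteine, serine and valine tRNAs. CARS2 had 10.6, 13.4 and 14.7 CPM with dimerizer and 13.2, 16.4 and 17.5 CPM without (log2 fold change -0.26 ± 0.037). SARS2 had 11.1, 12.3 and 14.4 CPM with dimerizer, against 12.4, 14.2 and 17.4 CPM without (-0.17 ± 0.041). VARS2 had 48.2, 52.8 and 55.8 CPM with dimerizer, against 53.8, 56.1 and 61.0 CPM without (-0.10 ± 0.024). The ranges overlapped for all 3 genes, and the falls passed the test. SARS2 shares 1492 of its 3231 exonic bases with the same-strand gene AC011455.2 in GENCODE 29, and VARS2 shares 1858 of 8448 with GTF2H4. Reads in those stretches could have been divided either way.

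Set side by side, RNA of the cytosolic enzyme gained on RNA of the mitochondrial enzyme in nearly every pair. EPRS, which charges both glutamate and proline tRNAs, was set against EARS2 and PARS2, and FARSA and FARSB were each set against FARS2. In 16 of 17 pairings of genes for the same amino acid, the log2 fold change with dimerizer was higher for the cytosolic gene. The median gap was 0.59 on the log2 scale. It was widest for SARS over SARS2 (1.72), CARS over CARS2 (1.63), AARS over AARS2 (1.34) and WARS over WARS2 (1.29). RARS was the exception, at -0.11 relative to RARS2. MARS and MARS2 both rose, with a gap of 0.26. The gaps are differences between genes of the same libraries and were not tested. With thapsigargin 16 of 17 gaps were above 0 (median 0.67), and with arsenite 13 were (median 1.89), while in Parental cells dimerizer gave 8 of 17 (median 0.00).

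**Figure D2:**
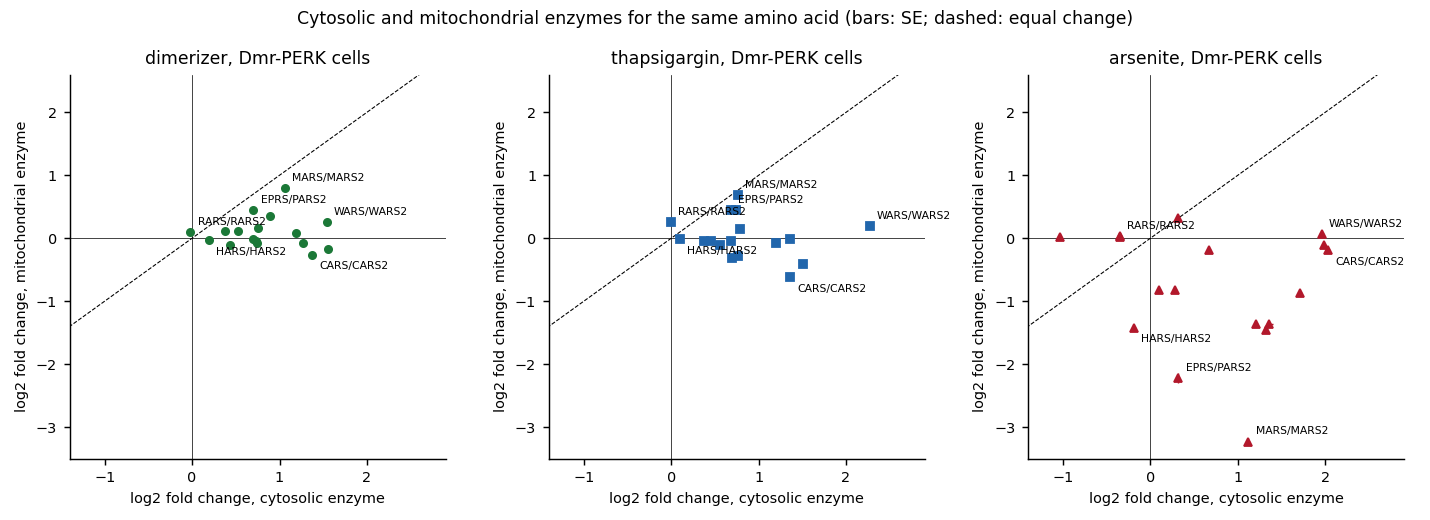
Log2 fold change of the mitochondrial gene (y axis) against that of the cytosolic gene (x axis) for 17 amino-acid pairings in Dmr-PERK cells. There is 1 panel per treatment (mean of 4 to 24 h, bars are SE). With dimerizer 16 of 17 points lie below the dashed line of equal change, and with arsenite the MARS and MARS2 pair is separated by 4.36.

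Summed over members, the cytosolic class gained more than the mitochondrial class. At 16 h the 18 cytosolic members summed to 3829 ± 28.3 TPM with dimerizer, against 2053 ± 19.7 TPM in untreated Dmr-PERK cells (SD, n = 3 each). The 16 mitochondrial members summed to 370 ± 4.43 TPM with dimerizer, against 366 ± 7.25 TPM in untreated cells. The mitochondrial sums lay farther apart at other hours, at 362 ± 1.59 TPM with 4 h of dimerizer, against 328 ± 9.68 TPM untreated. At 8 h the sum was 374 ± 4.11 TPM with dimerizer, against 352 ± 5.41 TPM untreated. At 24 h it was 359 ± 11.7 TPM with dimerizer, against 329 ± 3.38 TPM untreated. The ratio of the sums was 10.2 to 10.4 in the 3 dimerizer libraries at 16 h, against 5.51 to 5.70 in the 3 untreated libraries.

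**Figure D3:**
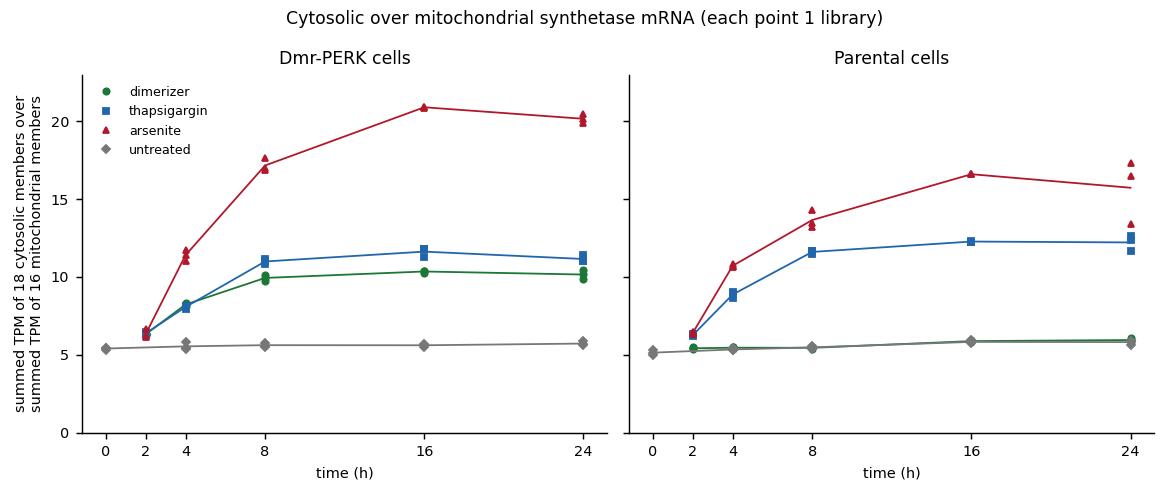
Summed TPM of the 18 cytosolic members over that of the 16 mitochondrial members (y axis, starting at 0) by time (x axis, h) in Dmr-PERK cells (left) and Parental cells (right), each point 1 library. In Dmr-PERK cells at 16 h the ratio is 10.2 to 10.4 with dimerizer, 11.3 to 11.8 with thapsigargin and 20.9 with arsenite, against 5.51 to 5.70 untreated, and in Parental cells the dimerizer and untreated lines run together.

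The rise came early for a few members and later for most. At 2 h, against untreated 0 h wells, 8 of 36 members were higher with dimerizer, while 8.39% of all genes were. Against untreated 4 h wells the number was 5. Against 0 h wells the 8 were led by CARS (log2 fold change 0.46 ± 0.037), PARS2 (0.36 ± 0.13) and AARS (0.31 ± 0.053). The same comparison in Parental cells gave 0.20 ± 0.054 for AARS, 0.07 ± 0.038 for CARS and 0.07 ± 0.13 for PARS2. These did not pass there. Untreated wells were not collected at 2 h, so within each line time and dimerizer cannot be told apart at that hour. In Dmr-PERK cells FARSB (-0.32), FARSA (-0.25), KARS (-0.24), HARS (-0.22), VARS (-0.21) and RARS (-0.14) were lower at 2 h, as were MARS2 and IARS2. The share of all genes lower at 2 h, likewise against 0 h wells, was 9.1%. The number higher was 19 at 4 h (15.5% of all genes), 21 at 8 h (19.8%), 22 at 16 h (22.4%) and 28 at 24 h (24.9%). Among cytosolic members it was 6, 14, 15, 16 and 17 at 2, 4, 8, 16 and 24 h.

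All 6 of these cytosolic and shared members were higher at 24 h, with log2 fold changes of 0.76 for VARS, 0.46 for HARS and 0.23 for RARS. FARSB, a subunit of the phenylalanyl-tRNA synthetase, had a log2 fold change of 0.11 at 4 h and 0.97 at 24 h, and FARSA, the other subunit, of 0.15 and 0.78. KARS had -0.10 at 4 h and 0.40 at 24 h. MARS2, also lower at 2 h (-0.26), had 1.43 at 24 h, and IARS2 (-0.14 at 2 h) had -0.06 at 24 h and did not pass there. The effect at 24 h minus that at 4 h passed the test in 24 members with dimerizer (34.7% of all genes; 15 members on log2(TPM + 1)), and WARS gained most among the cytosolic members (1.26 ± 0.077). QARS moved the other way. It had 119, 124 and 123 CPM at 24 h of dimerizer, against 191, 206 and 191 CPM in untreated wells, and its effect at 24 h minus that at 4 h was -0.49 ± 0.058. For AARS that difference was 0.03 ± 0.073 and did not pass.

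**Figure D4:**
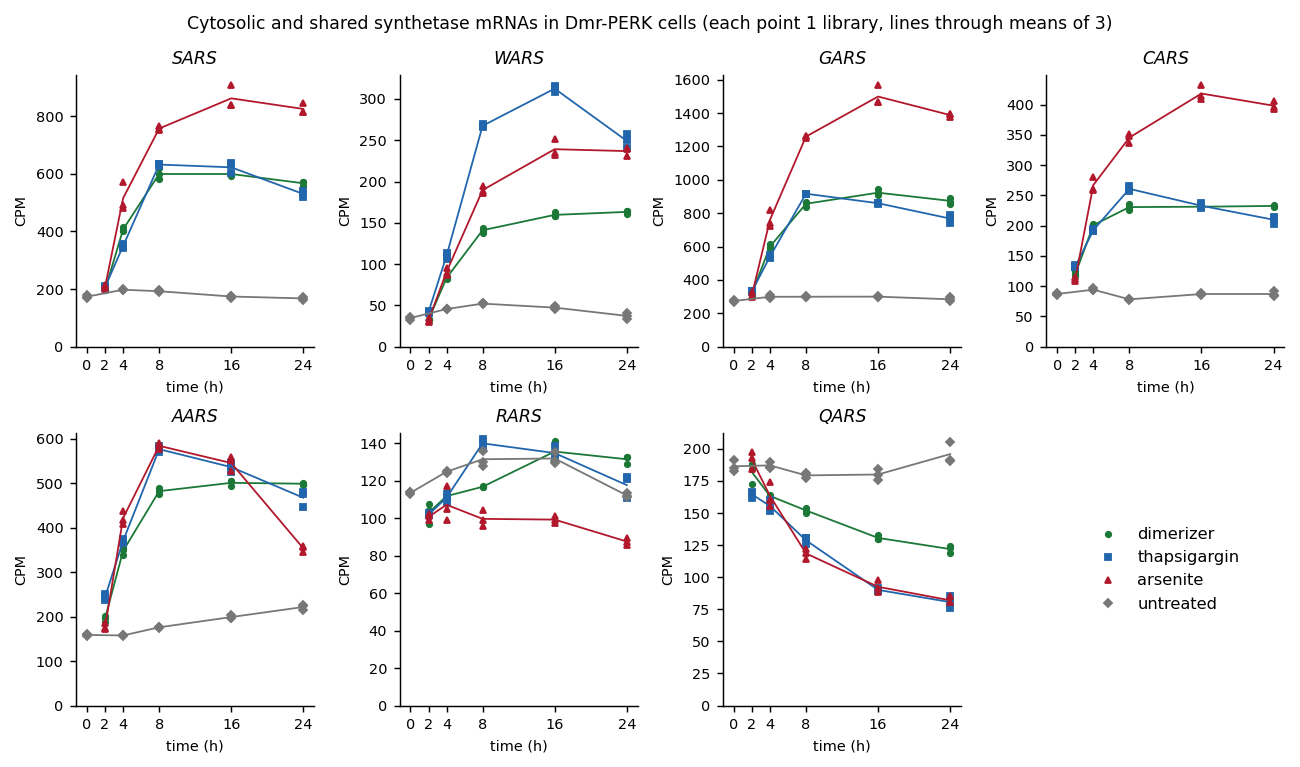
CPM (y axis, starting at 0) by time (x axis, h) in Dmr-PERK cells for the 5 cytosolic or shared members with the highest and the 2 with the lowest dimerizer effect, each point 1 library and each line through means of 3. SARS reaches 581 to 618 CPM at 8 h of dimerizer, QARS lies at 119 to 124 CPM at 24 h, and the dimerizer and untreated points of RARS overlap at 16 h.

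Thapsigargin also raised the cytosolic class in Dmr-PERK cells. Of the cytosolic members 16 rose and 1 fell, and of the mitochondrial members 6 rose and 6 fell. Over all genes 30.8% rose and 32.2% fell, so the mitochondrial counts lie near those shares. The median log2 fold change was 0.72 in the cytosolic class and -0.03 in the mitochondrial class, against 0.00 over all genes. Both treatments share the untreated wells, so the treated wells were compared directly over 2 to 24 h. Of the 36 members 20 differed between dimerizer and thapsigargin, 55.6% of them, against 46.8% of all genes.

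Few of these differences were large. WARS was the widest, lower with dimerizer by a log2 difference of -0.66 ± 0.022. It had 81.9, 151 and 165 CPM in dimerizer libraries from 4 h on, and 107, 262 and 315 CPM in thapsigargin libraries. QARS (0.32), CARS2 (0.31) and MARS (0.27) were higher with dimerizer than with thapsigargin. At 24 h QARS had 119, 124 and 123 CPM with dimerizer and 80.0, 85.5 and 76.3 CPM with thapsigargin. MARS shares 355 exonic bases on the opposite strand with DDIT3 (CHOP). DDIT3 itself had a median of 81.9 CPM with dimerizer and 229 CPM with thapsigargin, against 9.21 CPM untreated. The libraries were made with a directional kit, the sources used here do not give the strand setting of the counting, and the part of DDIT3 reads in MARS was not tested.

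The class medians lay farthest apart with arsenite. In Dmr-PERK cells 12 cytosolic members rose and 5 fell, while 2 mitochondrial members rose and 12 fell. With DESeq2's size factors the mitochondrial counts were 4 and 11, and on log2(TPM + 1) they were 1 and 14. When replicate 1, 2 or 3 was left out, 1 mitochondrial member rose. Over all genes 44.2% rose and 39.2% fell. The median log2 fold change was 0.50 for cytosolic and -0.83 for mitochondrial members, against 0.11 for all genes. With DESeq2's size factors the median over all genes was 0.22, and relative to it the class medians were 0.39 and -0.94, where TMM scaling gave 0.38 and -0.94. Compared directly, 32 members differed between dimerizer and arsenite over 2 to 24 h, against 80.3% of all genes.

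SARS, GARS and CARS were higher with arsenite than with dimerizer. SARS had 401, 576 and 618 CPM with dimerizer and 482, 790 and 907 CPM with arsenite, whose log2 fold change was 1.99 ± 0.018. GARS had medians of 865 CPM with dimerizer and 1320 CPM with arsenite, and CARS had medians of 231 CPM with dimerizer and 372 CPM with arsenite. Compared directly over 2 to 24 h, dimerizer minus arsenite was -0.36 ± 0.016 for SARS, -0.44 ± 0.017 for GARS and -0.51 ± 0.015 for CARS on the log2 scale. AARS had a smaller effect late, with 418, 408 and 437 CPM at 4 h and 358, 356 and 346 CPM at 24 h of arsenite, still above the 226 CPM of its highest untreated library, and the effect at 24 h was lower than that at 4 h by a log2 difference of -0.75 ± 0.073.

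Several members turned round between the treatments. FARSA rose with dimerizer (log2 fold change 0.38) and fell with arsenite (-1.04). At 24 h it had 82.2, 84.3 and 77.7 CPM with dimerizer and 22.5, 22.3 and 23.6 CPM with arsenite, against 50.2, 44.8 and 47.4 CPM in untreated wells. Among cytosolic and shared members FARSB (-0.35), HARS (-0.19) and KARS (-0.39) were also lower with arsenite and higher with dimerizer. RARS (-0.35) fell with arsenite as well, and QARS fell with all 3 agents.

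MARS2 had the widest gap between treatments among members called in opposite directions. It had 20.8, 23.7 and 26.1 CPM in 12 dimerizer libraries and 0.491, 1.51 and 4.63 CPM in 12 arsenite libraries, against 8.08, 14.8 and 20.7 CPM in untreated ones. No arsenite library reached the untreated range, and the log2 fold change was -3.23 ± 0.063 (adjusted p 3.96e-68, edgeR). At 24 h the 3 arsenite libraries held 8, 8 and 18 reads of MARS2, so counting error is large there. MARS2 has 1 exon in GENCODE 29 (GRCh38, chr2:197705369-197708387, plus strand).

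PARS2 behaved alike, with 0.401, 2.10 and 4.89 CPM with arsenite against 8.26, 8.96 and 11.5 CPM untreated (log2 fold change -2.22 ± 0.078). It rests on 11, 21 and 13 reads at 24 h. PARS2 has 2 exons (chr1:54756898-54764514, minus strand), and the other mitochondrial members have 5 to 29. MARS2 and PARS2 were also the members of lowest level, at medians of 8.68 and 5.96 TPM in untreated Dmr-PERK cells.

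TARS2, the mitochondrial threonyl-tRNA synthetase, had 11.2, 13.4 and 18.6 CPM with arsenite, against 26.6, 37.1 and 42.1 CPM untreated (-1.37 ± 0.030). AARS2 (-1.46), HARS2 (-1.42) and IARS2 (-1.36) fell by similar amounts, followed by YARS2 (-0.87), VARS2 (-0.83) and LARS2 (-0.82). VARS2 fell late, with 55.9 ± 3.59 CPM at 4 h and 18.4 ± 0.635 CPM at 24 h of arsenite, against 54.9 ± 0.461 CPM and 55.0 ± 1.05 CPM in untreated wells (SD, n = 3 each). EARS2 (0.32) rose, WARS2 rose by 0.07 and lay at -0.09 on log2(TPM + 1), and FARS2 (0.02) and RARS2 (0.03) did not pass the test. On log2(TPM + 1) FARS2 (-0.21) and RARS2 (-0.24) fell.

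**Figure D5:**
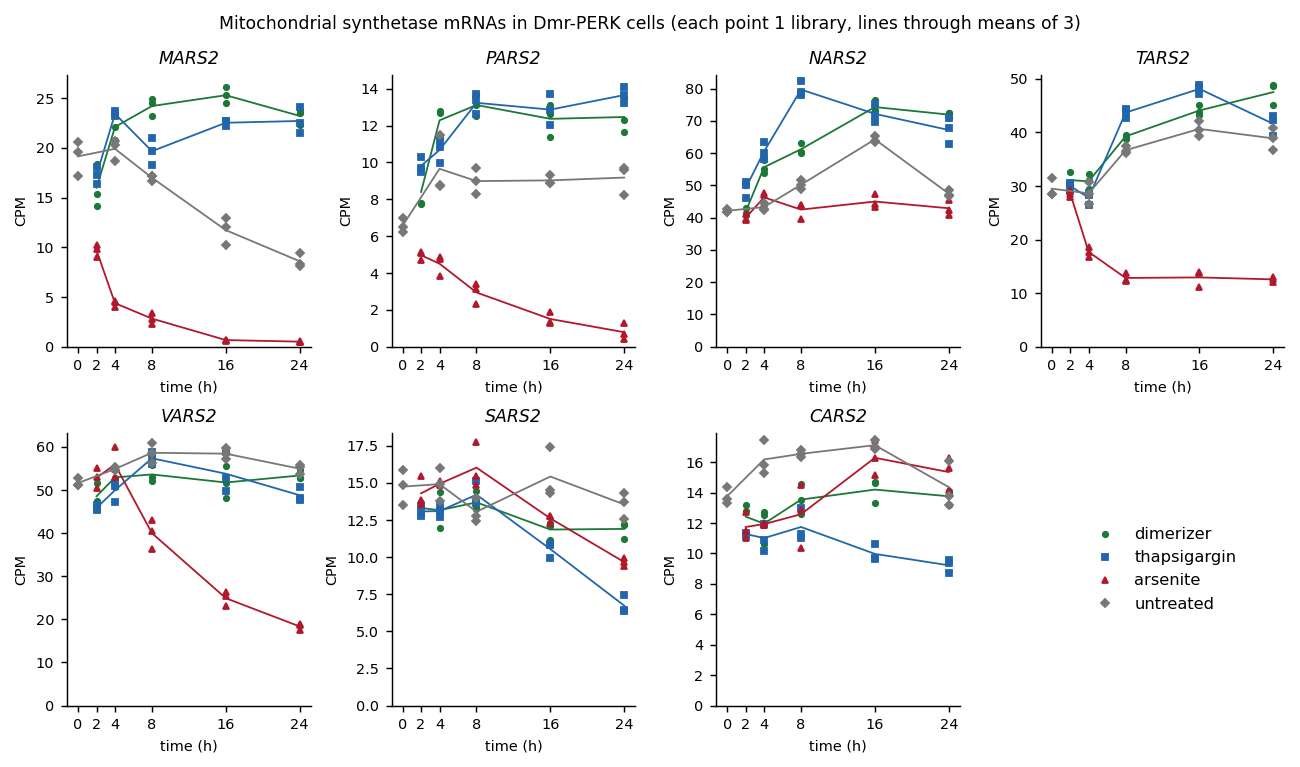
CPM (y axis, starting at 0) by time (x axis, h) in Dmr-PERK cells for 7 mitochondrial members, each point 1 library and each line through means of 3. With arsenite MARS2 lies at 0.491 to 0.555 CPM at 24 h, against 8.08 to 9.41 CPM untreated, and with dimerizer at 22.3 to 23.8 CPM.

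HARS and HARS2 lie head to head on chromosome 5, with 84 bases between their RefSeq starts, and both strands of that stretch hold CGGAAG. They differed with arsenite. At 24 h HARS averaged 44.1 ± 0.929 CPM, against 50.8 ± 2.34 CPM untreated (SD, n = 3 each). HARS2 had 8.53, 8.00 and 8.38 CPM, against 27.1, 26.8 and 27.8 CPM untreated. The 2 genes share 437 exonic bases on opposite strands in GENCODE 29.

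The effects of arsenite went on changing. The effect at 24 h minus that at 4 h passed the test in 33 of 36 members in Dmr-PERK cells (61.4% of all genes) and in 31 in Parental cells (63.5%). With thapsigargin it passed in 27 members in Dmr-PERK cells (41.7% of all genes) and in 22 in Parental cells (39.3%). WARS gained most with both agents in Dmr-PERK cells, by 1.46 ± 0.076 with thapsigargin and 1.67 ± 0.077 with arsenite. With arsenite SARS (0.92), IARS (0.81), TARS (0.74) and YARS (0.48) also gained there. Other cytosolic members went down from 4 to 24 h, among them QARS (-1.06), AARS (-0.75), FARSA (-0.60), EPRS (-0.46), LARS (-0.32) and NARS (-0.29). At 24 h of arsenite the effects of EPRS (-0.0008) and LARS (0.06) did not pass.

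Parental cells address whether the dimerizer acts without the construct. Over 4 to 24 h 0 of 36 members passed with dimerizer in Parental cells by edgeR, where 0.515% of all genes did (139 genes, against 31 without replicate 1 and 3 without replicate 2). At an unadjusted p under 0.05 edgeR gave 3 members, and DESeq2 called 0 after adjustment. Log2 fold changes lay between -0.08 and 0.07. At 4 h alone 6 members passed, against 7.17% of all genes, with AARS at 0.26 ± 0.053, AARS2, LARS2, YARS and MARS higher and SARS2 lower. The number was 2 when replicate 1, 2 or 3 was left out and 0 on log2(TPM + 1). The dimerizer effect itself differed between the lines in 28 of 36 members (46.7% of all genes).

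Thapsigargin and arsenite acted in Parental cells too. With thapsigargin 17 cytosolic members rose and 1 fell, and 7 mitochondrial members rose and 6 fell, where 29.8% of all genes rose and 34.7% fell. With arsenite 10 cytosolic members rose and 8 fell, and 4 mitochondrial members rose and 12 fell, where 42.4% of all genes rose and 39.4% fell. The cytosolic counts with arsenite thus lie near the shares over all genes. With DESeq2's size factors 11 cytosolic members rose and 5 fell, and on log2(TPM + 1) 1 mitochondrial member rose and 14 fell. Relative to the median of all genes, which was 0.09 with TMM scaling and 0.21 with DESeq2's size factors, the class medians were 0.14 and -0.65 with both. These arsenite calls are on means over 4 to 24 h, and some members changed direction within that time. EPRS had log2 fold changes of 0.57 at 4 h and -0.70 at 24 h, and NARS of 0.73 and -0.17. LARS, called lower on the mean, had 0.25 at 4 h and -0.66 at 24 h. SARS (1.34 and 1.96) and TARS (0.95 and 1.10) were higher at both hours. The thapsigargin effect differed between the lines in 16 members (25.6% of all genes; 9 on log2(TPM + 1)), and none of these differences reached 0.5 on the log2 scale. WARS had the widest, -0.31 ± 0.036. It had 107, 262 and 315 CPM in Dmr-PERK thapsigargin libraries and 284, 671 and 790 CPM in Parental ones, and its untreated level was also lower in Dmr-PERK cells.

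The arsenite effect differed between the lines in 27 members (42.3% of all genes). MARS2 had the widest difference, as its log2 fold change was -3.23 in the Dmr-PERK line and -1.64 in Parental cells (difference -1.59 ± 0.099, adjusted p 1.44e-26, edgeR). It had 0.491, 1.51 and 4.63 CPM in Dmr-PERK arsenite libraries and 1.17, 3.70 and 5.65 CPM in Parental ones. PARS2 followed at -0.54 ± 0.12, but without replicate 3 its difference was -0.13 and did not pass. Of the cytosolic members 15 had a higher effect in Dmr-PERK cells, by up to 0.44 for AARS and MARS. Over all genes 23.5% had a higher effect in Dmr-PERK cells and 18.8% a lower one. The median of all genes for this difference was 0.05.

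Untreated cells of the lines were not alike. Of the members 31 differed between untreated Dmr-PERK and untreated Parental cells, against 62.1% of all genes. WARS was lower in Dmr-PERK cells, with a median of 43.2 TPM against 94.4 TPM in Parental cells (log2 difference -1.04 ± 0.024). SARS2 had medians of 18.1 TPM in Dmr-PERK and 38.3 TPM in Parental cells (-1.10 ± 0.032), and CARS2 had 15.4 TPM in Dmr-PERK and 25.2 TPM in Parental cells (-0.65 ± 0.030). NARS2 (0.51), MARS2 (0.45) and TARS2 (0.44) were higher in Dmr-PERK cells.

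Untreated wells also drifted. From 0 h, 19 members had changed at 24 h in Dmr-PERK cells (30.8% of all genes) and 26 in Parental cells (32.4%). Without replicate 2 the number was 12 in Dmr-PERK cells. AARS was higher at 24 h by 0.48 ± 0.053 in the Dmr-PERK line and by 0.78 ± 0.053 in Parental cells. MARS2 was lower, by log2 differences of -1.15 ± 0.083 in the Dmr-PERK line and -0.75 ± 0.087 in Parental cells. Effects at 4 to 24 h were read against wells of the same hour.

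Genes that act beside the synthetases were looked at by lists. The multisynthetase complex holds 8 of the members (EPRS, IARS, LARS, MARS, QARS, RARS, KARS and DARS) on a scaffold of AIMP1, AIMP2 and EEF1E1. Of all genes, 27.4% rose and 27.9% fell with dimerizer in Dmr-PERK cells, 30.8% and 32.2% with thapsigargin, and 44.2% and 39.2% with arsenite. With dimerizer in Dmr-PERK cells 6 of the 8 rose and QARS fell, with a median log2 fold change of 0.41, and all 3 scaffold genes rose, by 0.30 for AIMP1, 0.67 for AIMP2 and 0.39 for EEF1E1. With arsenite 4 of the 8 rose and 3 fell, near the shares over all genes, while AIMP2 (-0.84) and EEF1E1 (-0.24) fell and AIMP1 rose (0.09).

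Of 11 genes for other charging and export steps, 9 rose and 1 fell with dimerizer (median 0.30), and 4 rose and 7 fell with arsenite (median -0.34). Over all genes 27.4% rose and 27.9% fell with dimerizer, and 44.2% rose and 39.2% fell with arsenite. XPOT, the exporter of tRNA from the nucleus, rose with all 3 agents, by 1.07 with dimerizer, 1.04 with thapsigargin and 1.31 with arsenite. SEPSECS, which completes selenocysteine on its tRNA, rose by 0.88 with dimerizer and 1.02 with thapsigargin and fell with arsenite (-1.07). MTFMT, which formylates the mitochondrial initiator tRNA, fell with arsenite (-1.51).

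Of 20 genes of RNA polymerase III and its factors, which transcribe tRNA genes, 12 rose and 4 fell with dimerizer (median 0.14), 8 rose and 8 fell with thapsigargin (median -0.04), and 4 rose and 13 fell with arsenite (median -0.44). The shares of all genes that rose and fell were 27.4% and 27.9% with dimerizer, 30.8% and 32.2% with thapsigargin, and 44.2% and 39.2% with arsenite, so the thapsigargin counts lie near the background. The subunits POLR3C (0.96) and POLR3D (0.89) led with dimerizer. Of 10 mitochondrial translation factors tested, 7 rose with dimerizer and 3 did not pass (median 0.29), led by the initiation factor MTIF2 (0.62). With arsenite 5 of these factors rose and 4 fell (median 0.05), also near the shares over all genes, with TSFM, an elongation factor, at -1.69. All 5 cytosolic elongation factor genes rose with dimerizer, by 0.09 to 0.28.

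RNA markers of the response rose with all 3 agents in Dmr-PERK cells, while eIF2α phosphorylation and ATF4 protein are not read by these libraries. ATF4 rose by 1.06 with dimerizer, 1.12 with thapsigargin and 1.60 with arsenite, and ASNS, the asparagine synthetase and a known ATF4 target, by 2.32, 2.07 and 1.80.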

How the data were processed

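RNA of 120 wells was sequenced with a directional library kit on a NovaSeq, per the labels' protocols. The authors deposited estimated counts and TPM per gene, and the submitters' processing notes name FastQC 0.11.5 and Salmon 0.9.1 with build GRCh38. The annotation and strand setting are not given in the sources used here. The estimated counts deposited by the authors were rounded to whole numbers. Genes passed edgeR's filterByExpr (minimum count 10). All 120 libraries entered one quasi-likelihood fit of 40 groups (R 4.3.3, edgeR 4.0.16, TMM scaling), called at an adjusted p under 0.05. CPM use TMM-scaled totals. TPM are as deposited, and lists were summed per library.

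The members and lists were chosen with earlier results of these data known. Per-library values are given for the 5 highest and 2 lowest cytosolic or shared members with dimerizer, the 3 highest and 3 lowest mitochondrial members, and the 3 widest opposite calls; other genes of a list are those with the smallest adjusted p. AARS and FARSA with arsenite, VARS2 over time and HARS with HARS2 were added after their values were seen. The count test for dimerizer was first run on simulated counts modelled on untreated and dimerizer Dmr-PERK groups of 4 to 24 h. Thapsigargin and arsenite groups were not simulated. Alternatives were DESeq2 1.42.0, its size factors, limma 3.58.1 on TPM, no filter, fits per line, leaving out replicates and a replicate block.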

Additional observations from a re-analysis of the deposited data

Results flagged for a closer look

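Effects that differed between the lines or between hours, by a test of the difference itself in edgeR, are listed here as values. The dimerizer effect over 4 to 24 h differed between Dmr-PERK and Parental cells in 28 members (46.7% of all genes), the thapsigargin effect in 16 (25.6%; 9 members on log2(TPM + 1)) and the arsenite effect in 27 (42.3%). With arsenite the difference was -1.59 on the log2 scale for MARS2, with effects of -3.23 in Dmr-PERK and -1.64 in Parental cells, and -0.54 for PARS2, with effects of -2.22 in Dmr-PERK and -1.68 in Parental cells, and -0.13 without replicate 3. The effect at 24 h differed from that at 4 h in 24 members with dimerizer (34.7% of all genes; 15 members on log2(TPM + 1)), 27 with thapsigargin (41.7%) and 33 with arsenite (61.4%) in Dmr-PERK cells. In Parental cells it differed in 22 members with thapsigargin (39.3% of all genes) and in 31 with arsenite (63.5%).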

How the results depend on the processing

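For the dimerizer and thapsigargin effects over 4 to 24 h in Dmr-PERK cells, 16 or 17 cytosolic members were higher and 1 lower under every alternative run. The cytosolic gene of a pair was the higher in 16 of 17 pairs with dimerizer under each of them. Deviations from the group means had a median correlation of 0.001 between same-numbered wells and 0 between differently numbered ones. No shift shared by same-numbered wells was seen, which does not settle whether they shared a culture or a day. The replicate block left 502 of 504 single-member results with their direction and side of the threshold and moved 0 counts by more than 1.5 times, for example 28 members for the dimerizer line difference and 21 for dimerizer against thapsigargin.

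Leaving out replicate 1, 2 or 3, or the 2 libraries that stand apart (added after seeing the data), gave 3 to 5 mitochondrial members lower with dimerizer in Dmr-PERK cells and 1 to 2 higher with arsenite, 12 to 22 members changed from 0 to 24 h in untreated Dmr-PERK cells, 2 to 7 past the threshold at 4 h of dimerizer in Parental cells, and 3 to 303 of all genes with dimerizer in Parental cells, where the main count is 139. On log2(TPM + 1) and log2(TPM + 0.1) alike, the line difference for thapsigargin held 9 members, the 24 h against 4 h dimerizer difference 15, the untreated drift of Dmr-PERK cells 11, dimerizer at 4 h in Parental cells 0, and mitochondrial members higher with arsenite 1 in each line. All genes called with dimerizer in Parental cells were then 28 and 14, against 254 with no filter on low counts and 282 with DESeq2. DESeq2 and its size factors gave 4 mitochondrial members higher with arsenite in Dmr-PERK cells and 5 cytosolic members lower in Parental cells. With no filter, mitochondrial members higher with arsenite numbered 1 in Dmr-PERK and 2 in Parental cells, and dimerizer at 4 h in Parental cells held 2. Against untreated 4 h wells, 5 members were higher at 2 h of dimerizer. TGATGNAA lay in 2 cytosolic promoters when only 200 bases before the start were read. With arsenite in Dmr-PERK cells, log2(TPM + 1) and log2(TPM + 0.1) gave FARS2 -0.21 and -0.24, RARS2 -0.24 and -0.25, and WARS2 -0.09 and -0.10, each opposite in sign to the count fit. Arsenite in Parental cells had 9028 genes higher and 12776 lower on log2(TPM + 0.1), against 11444 and 10627 by edgeR. Over 504 single-member results, 22 reversed on each TPM scale and 2 with DESeq2 or its size factors. The cause was not tested for any of these.
Precision is limited by depth for MARS2 and PARS2 with arsenite at 16 and 24 h, where libraries hold few reads.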
